A study of Mus musculus x Rattus norvegicus with 2 samples.

Results

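Fibroblasts of mouse origin were picked from the single-cell profiles of chimeric lungs by their counts of Mfap5, a microfibril glycoprotein, Dpt, the matrix protein dermatopontin, and Cxcl14, a chemokine. All 3 genes are used to mark adventitial fibroblasts. A cell was chosen if it held at least 30 molecules (unique molecular identifiers, UMIs) of Col1a1, Col1a2 and Col3a1 summed, at least 4 of Mfap5, Dpt and Cxcl14 summed, at most 2 of the epithelial gene Epcam, at most 2 of the endothelial genes Cdh5 and Pecam1, fewer than 10 of the smooth muscle genes Actg2, Myh11 and Cnn1, and fewer than 5 of the myofibroblast genes Aspn, Hhip and Fgf18. The chosen cells numbered 868 of 18011 kept barcodes, 137 in the control library and 731 in the mutant library.

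Adventitial fibroblasts lie in the connective tissue cuff around large airways and blood vessels. They lay down collagen, proteoglycans and the microfibrils on which elastin is deposited, and are known for Pi16, Dcn, Cd34 and Mfap5. Alveolar fibroblasts lie in the gas exchange walls next to the epithelium and are known for Tcf21, Npnt and Wnt2.

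The lungs were taken at stage E20.5 (embryonic days) from animals made of C57BL/6 mouse cells and SD rat cells. For the control library, the lung was chimeric and the rat host wild type. The mutant library came from a lung of mouse cells in an Nkx2-1-/- rat host, which lacks a transcription factor needed for lung development. The chosen cells of both libraries are mouse cells, so the rat genotype was that of the host and not of the cells described here. Nothing in the labels says how many embryos were pooled. Each group was 1 library with no replicate check, so every interval below is a 95% interval that covers counting error only, and no p-value was computed.

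The libraries held 123047433 UMIs in 11129 barcodes (control) and 103627303 UMIs in 10918 barcodes (mutant), and 7414 and 8854 barcodes were kept as mouse cells. The libraries shared 47 barcode sequences, carried by 1 chosen control cell and 7 chosen mutant cells. The chosen cells had medians of 9517 mouse UMIs and 3408 genes (control) and of 13116 and 3877 (mutant). Genes with at most 10 kb of intron held 58.6% of the chosen cells' mouse UMIs (control) and 51.0% (mutant). The mutant file came from a later Cell Ranger version whose default counts intronic reads, and the intron setting of either file was not stated in the labels or headers.

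Of the control library's mouse cells the chosen cells were 1.85%, with an interval of 1.55% to 2.18%. Of the mutant library's they were 8.26%, with an interval of 7.69% to 8.85%. Among cells that met every other limit, 1820 control and 1306 mutant cells, they were 7.53% (6.36% to 8.84%) and 56.0% (53.2% to 58.7%). The sum of Mfap5, Dpt and Cxcl14 was 0 in 1299 of those 1820 control cells and in 174 of those 1306 mutant cells. Just inside the limit, 62 control and 197 mutant cells had a sum of 4 or 5. Just outside it, 143 control and 248 mutant cells had 2 or 3. The median sum in the chosen cells was 6 and 7 and the highest 24 and 41. When every cell was thinned to 3000 mouse UMIs and the limits were lowered, the shares of mouse cells were 1.98% (control) and 6.09% (mutant).

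The 3 marker genes did not contribute alike in the libraries. Dpt (ENSMUSG00000026574, mm10 chromosome 1, 164796644 to 164824266) was detected in 58.4% of the chosen control cells and 89.7% of the chosen mutant cells, and gave 35.9% and 77.1% of all marker UMIs. Cxcl14 (ENSMUSG00000021508, chromosome 13, 56288643 to 56296551) was detected in 61.3% and 32.3% and gave 53.2% and 13.6%. Mfap5 (ENSMUSG00000030116, chromosome 6, 122505845 to 122529290) was detected in 19.7% and 16.4% and gave 10.8% and 9.30%. In 91 of 137 control cells and 480 of 731 mutant cells only 1 of the 3 genes was detected, and 8 and 30 cells held all 3. The cells were therefore also described by the marker with the most UMIs, a split chosen after these values were seen. Mfap5 led in 10 control and 43 mutant cells, Dpt in 56 and 582, and Cxcl14 in 68 and 83, while 3 and 23 cells were tied. Dpt-led cells were 0.755% of control and 6.57% of mutant mouse cells. Cxcl14-led cells were 0.917% and 0.937%, and Mfap5-led cells 0.135% and 0.486%. The higher share of chosen cells in the mutant library thus lay mostly in Dpt-led cells. Among fibroblasts with a marker sum of at most 3, Dpt was detected in 14.5% (control) and 54.3% (mutant). How far a higher Dpt level let more cells pass the limit was not tested.

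**Figure D1:**
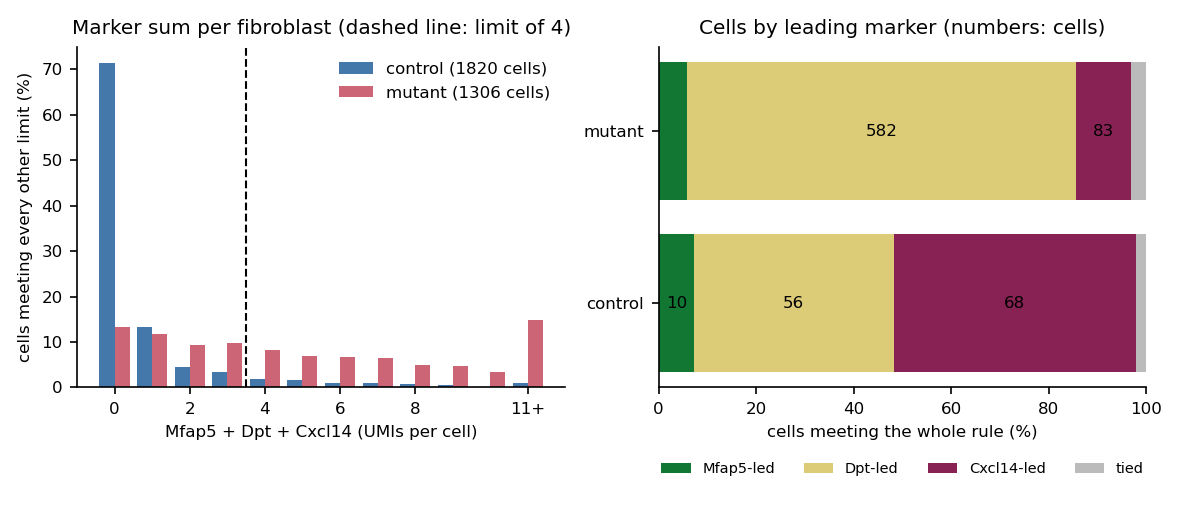
Left, percent of the fibroblasts that met every other limit (vertical axis) by their summed Mfap5, Dpt and Cxcl14 UMIs (horizontal axis), for the control (blue) and mutant (red) libraries; cells right of the dashed line were chosen. Right, percent of the chosen cells of each library led by each marker: Dpt led in 582 of 731 mutant cells and Cxcl14 in 68 of 137 control cells.

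The label of adventitial fibroblast was checked against genes that the choice did not use. Most of the chosen cells also carried alveolar fibroblast genes, so the label was not taken as given. Tcf21 and Npnt, a transcription factor and a matrix protein of alveolar fibroblasts, summed to 3 UMIs or more in 129 of 137 control cells and 716 of 731 mutant cells. In the remaining fibroblasts (cells within every other limit but with a marker sum of at most 3) this held in 1437 of 1683 and 541 of 575. It also held in 9 of 10 control and 33 of 43 mutant cells led by Mfap5. This limit thus did not set the groups apart, and its counts alone do not decide the label. Wnt2, a signalling protein of alveolar fibroblasts, was detected in 40.9% of chosen control cells and 79.3% of chosen mutant cells, against 83.2% and 84.9% of remaining fibroblasts. After thinning to 3000 UMIs these shares were 24.8% and 44.9% in chosen cells, and 54.8% and 55.2% in remaining ones. Endothelial cells, which should lack Wnt2, gave 1.21% and 1.40% after thinning and 3.49% and 3.24% before it, at medians of 7710 and 8115 mouse UMIs.

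Adventitial genes outside the rule differed among themselves. Cygb was detected in 38.0% of chosen control and 20.2% of chosen mutant cells, against 12.4% and 10.3% of remaining fibroblasts (thinned, 21.2% and 9.44% against 4.65% and 5.40%). Abca8a was detected in 40.9% and 42.7% against 16.6% and 29.9% (thinned, 19.7% and 20.7% against 6.14% and 12.2%). Both genes were under 3% in endothelial cells, and their shares were higher in chosen than in remaining cells of each library. Cd34, which endothelial cells express, was detected in 35.0% and 17.9% against 23.2% and 11.5%. Dcn was detected in 29.9% and 12.7% against 29.8% and 15.7%. Thinned, the control shares were 23.4% against 19.1% for Dcn and 19.7% against 9.48% for Cd34. Pi16, a peptidase inhibitor gene that marks adventitial fibroblasts, was detected in 2 of 137 and 9 of 731 chosen cells. The control share was 1.46%, against 0.713% of remaining fibroblasts and 2.62% of endothelial cells. The mutant share was 1.23%, against 0.785% of endothelial cells. In the control library Pi16 was thus detected in a larger share of endothelial cells than of remaining fibroblasts, so the endothelial share may not be background for this gene. Ptn, a heparin-binding growth factor, was detected in 35.8% of chosen control cells and 9.85% of chosen mutant cells, against 15.6% and 7.83% of remaining fibroblasts. Thinned, these shares were 26.3% and 5.47% against 9.36% and 4.53%, and endothelial cells gave 5.68% and 1.13% (22.4% and 2.83% before thinning). Markers of alveolar fibroblasts, 13 of the 14 listed being found, summed to 12085 CPM (UMIs per 1000000 mouse UMIs, not divided by gene length) in chosen control cells and 21567 CPM in chosen mutant cells, against 9393 and 19133 CPM in remaining fibroblasts. Most of each sum came from 2 genes, Mfap4 and Macf1. Mfap4 was at 7027 and 9971 CPM against 5435 and 9060 CPM. Macf1, with 303 kb of intron, was at 1987 and 6247 CPM against 1558 and 5401 CPM. The sum therefore says little about the other markers, and Wnt2 was detected in fewer chosen than remaining cells. The 4 adventitial markers Mfap5, Cxcl14, Ptn and Abca8a summed to 771 and 324 CPM against 114 and 125 CPM, and Mfap5 and Cxcl14 among them were used in the choice. That sum was thus raised by the choice itself. Outside the rule, Ptn was at 261 and 71.0 CPM against 82.0 and 43.4 CPM, and Abca8a at 63.7 and 106 CPM against 19.4 and 56.4 CPM. Of 18 adventitial genes outside the rule measured in both libraries, 0 were 2-fold or more above the remaining fibroblasts in both and 0 below. Over all genes so measured, the shares were 0.0364% and 0.0485%. The 3 genes higher in both were Dpt, Mfap5 and Cxcl14, which chose the cells. At shares this low, 0 of 18 was no result about the adventitial genes in particular. The chosen cells also held the alveolar fibroblast markers of the remaining fibroblasts. They are called Mfap5/Dpt/Cxcl14-selected fibroblasts, or chosen fibroblasts, below.

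Mfap5-led cells, 10 control and 43 mutant, were described first, against the remaining fibroblasts of their library. They had 106807 and 521426 mouse UMIs in all, so 1 UMI was worth 9.36 CPM in the control sum. Of the 36 adventitial genes listed outside the rule, 22 were measured in both libraries, that is, reached 10 CPM in either the Mfap5-led or the remaining cells. Of these, 12 were at least 2-fold above the remaining fibroblasts in both libraries: Pi16, Dcn, Serpinf1, Gsn, Igfbp4, Fbln1, Fbln2, Cd34, Cygb, Ptn, Abca8a and Medag. Pi16, Serpinf1, Fbln2 and Medag were under 10 CPM in the remaining fibroblasts of both libraries, so they were measured only through the cells where they were high, and Pi16 rested on 2 control and 13 mutant UMIs. The guidance protein Slit2 was at least 2-fold below in both. Over all 8425 genes so measured, 2.56% were 2-fold or more higher in both and 2.29% lower in both. In 1 library at a time, 8.26% were higher and 14.9% lower in the control, and 4.75% and 4.27% in the mutant. A fold here is on the scale of CPM + 10, which understates the difference of low genes. The cells were picked from the same counts, so this is a description without a test.

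Ptn (ENSMUSG00000029838, chromosome 6, 36714929 to 36810220) stood at 1601 CPM in the Mfap5-led control cells and 846 CPM in the Mfap5-led mutant cells, against 82.0 and 43.4 CPM in remaining fibroblasts. Every one of the 10 control cells held Ptn, with 1 to 45 UMIs and a median of 15.5. In the mutant library 26 of 43 cells held it, with 0 to 77 UMIs and a median of 2, and 21 cells had 4 or more. The remaining 17 mutant cells held no Ptn UMI, so the range of the mutant cells covered that of the control cells.

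Other genes of the Mfap5-led cells were Cygb, the globin cytoglobin (ENSMUSG00000020810, chromosome 11, 116645595 to 116654313), at 253 CPM in control and 297 CPM in mutant cells against 17.1 and 15.5 CPM in remaining fibroblasts. Dcn, the collagen-binding proteoglycan decorin (ENSMUSG00000019929, chromosome 10, 97479609 to 97518143), was at 609 and 339 CPM against 132 and 76.1 CPM. Cd34, a surface sialomucin, was at 103 and 153 CPM against 33.2 and 11.9 CPM. Gsn, the actin-severing protein gelsolin, was at 1414 and 2077 CPM against 265 and 795 CPM. Prss35, a serine protease-like gene, was at 534 and 307 CPM against 25.5 and 28.6 CPM. All 5 were higher than in the remaining fibroblasts of the same library.

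Genes for growth factor binding proteins and elastic fibres were also described in the Mfap5-led cells. Igfbp5, a binding protein of insulin-like growth factors, was at 571 and 368 CPM against 41.5 and 14.3 CPM. Igfbp4 was at 1133 and 942 CPM against 271 and 222 CPM, and Igfbp7 at 431 and 1001 CPM against 62.9 and 186 CPM. Of 16 elastic fibre genes, 7 were 2-fold or more higher in both libraries and 0 lower: Eln, Fbln1, Fbln2, Fbln5, Ltbp2, Ltbp4 and Loxl1. Eln, which encodes elastin, was at 5861 and 8003 CPM against 903 and 3725 CPM. Of 14 chemokine, cytokine and complement genes, 5 were higher in both (Cxcl12, Cxcl1, Cd55, Il1r1 and Osmr) and 0 lower. Cxcl1, at 7.69 and 9.13 CPM, and Fbln2 were under 10 CPM in the remaining fibroblasts of both libraries. They were measured only through the Mfap5-led cells where they were high. Over all genes measured in both libraries, 2.56% were 2-fold or more higher in both and 2.29% lower.

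Of 16 imprinted fetal growth genes measured in both libraries, 8 were 2-fold or more above remaining fibroblasts in both (Dlk1, Meg3, Peg3, Plagl1, Cdkn1c, Rian, Zim1 and Nnat) and 0 below. Dlk1, a membrane protein of the Notch ligand family, was at 3492 and 2409 CPM against 635 and 186 CPM. Meg3, a noncoding RNA of the same imprinted cluster, was at 2603 and 1185 CPM against 352 and 183 CPM. Among mesenchymal transcription factors 6 of 31 were higher in both (Twist2, Prrx1, Osr1, Ebf1, Klf4 and Zeb1), and Tbx5 was lower. The shares over all genes measured in both libraries were 2.56% higher and 2.29% lower.

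Of 12 alveolar fibroblast genes measured in both libraries, 7 were 2-fold or more below the remaining fibroblasts in both (Npnt, Ces1d, Slc7a10, Wnt2, Fgfr4, Macf1 and Plin2), and the glypican Gpc3 was above. Wnt2 (ENSMUSG00000010797, chromosome 6, 17988940 to 18030585) was at 9.36 CPM from 1 UMI in control cells and 9.59 CPM from 5 UMIs in mutant cells, against 314 and 315 CPM. Tcf21 was not among these genes: it stood at 449 and 435 CPM against 458 and 751 CPM, and 9 of 10 control and 33 of 43 mutant cells had 3 or more UMIs of Tcf21 and Npnt. Of 22 cell division genes, 18 were 2-fold or more lower in both and 0 higher. Both counts of lower genes stand beside 2.29% lower and 2.56% higher over all genes measured in both libraries.

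Markers of neighbouring cell types were present in Mfap5-led cells as well. The 12 pericyte markers summed to 1002 CPM in control and 1239 CPM in mutant cells, against 466 and 330 CPM in remaining fibroblasts, with Trpc6 at 0 in both libraries and Higd1b at 0 in control cells. The 9 smooth muscle markers, partly limited by the rule, summed to 1994 and 1204 CPM against 1168 and 919 CPM. The 10 endothelial markers, also partly limited, summed to 225 and 175 CPM against 128 and 87.5 CPM. The 11 alveolar myofibroblast markers, of which the rule limits Aspn, Hhip and Fgf18, summed to 2069 and 1482 CPM against 1277 and 919 CPM, with Stc1 at 0 in both libraries. The part of these markers in the Mfap5-led profile, elastic fibre genes included, was not tested. The limit on Aspn, Hhip and Fgf18 also bore on these cells: of all mouse cells with 4 or more Mfap5 UMIs, 44 control and 155 mutant cells, 31 and 97 exceeded it and 10 and 53 met the whole rule.

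**Figure D2:**
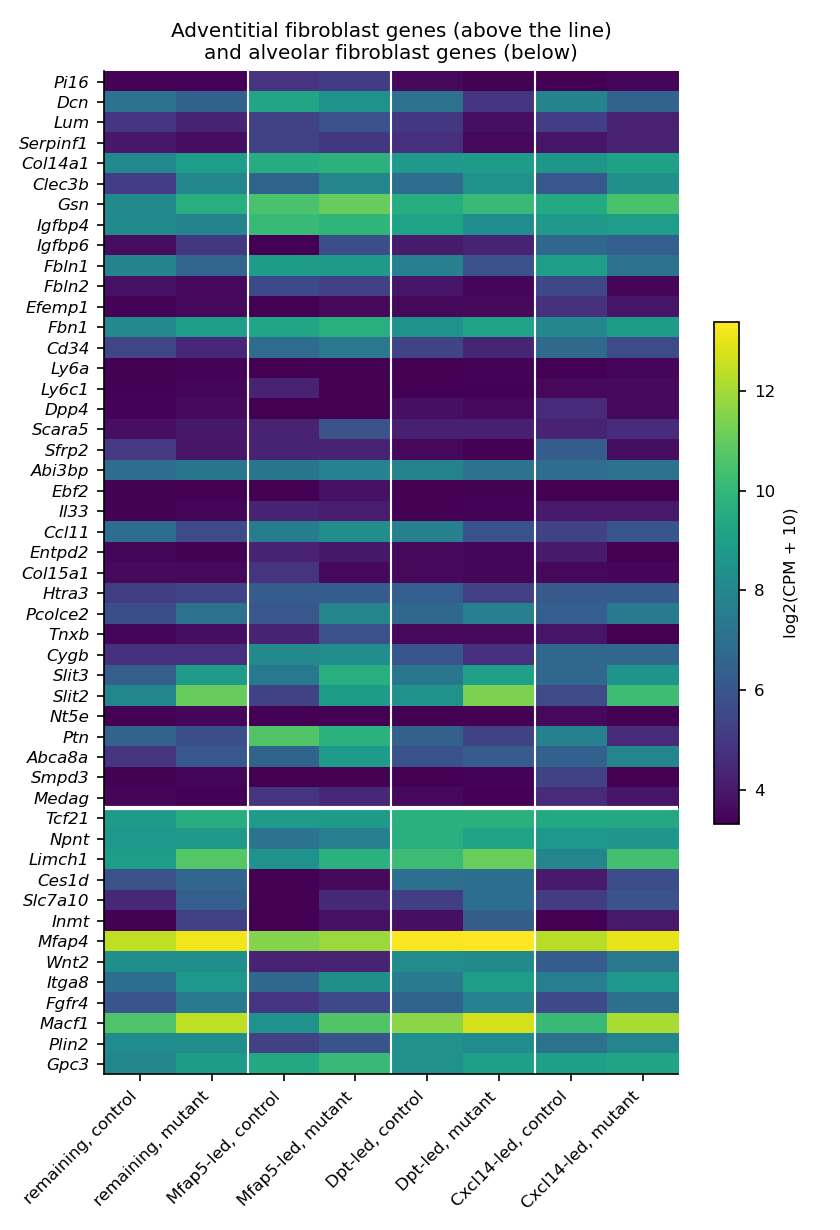
Level of each gene, log2(CPM + 10) by colour, in remaining, Mfap5-led, Dpt-led and Cxcl14-led fibroblasts of the control and mutant libraries (columns); adventitial fibroblast genes outside the rule are above the white line and alveolar fibroblast genes below. Ptn, Dcn and Cygb are brightest in the Mfap5-led columns, where Wnt2 and Ces1d are dark.

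**Figure D3:**
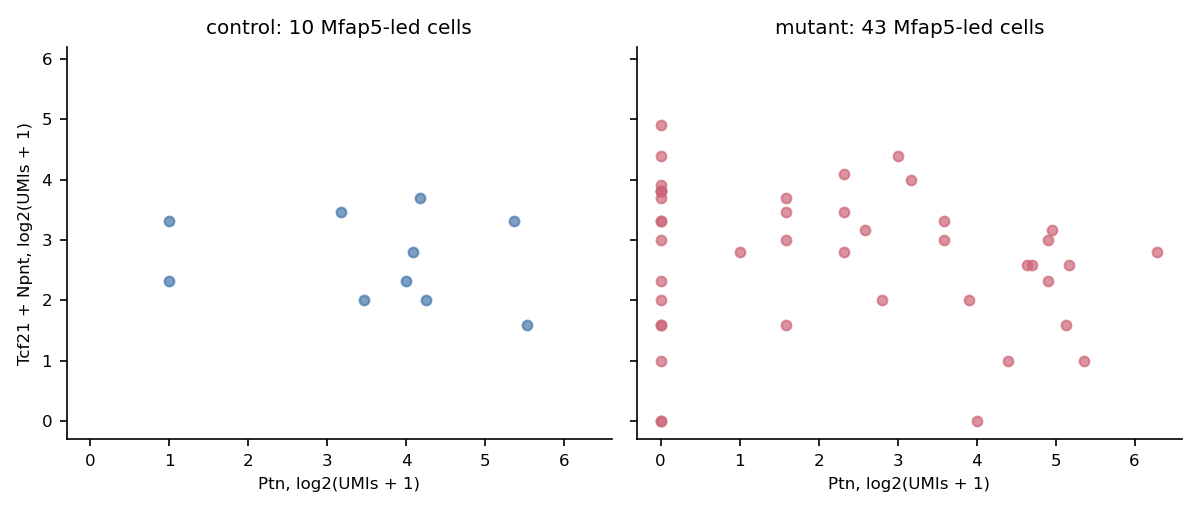
Each point is 1 Mfap5-led cell of the control (left, 10 cells) or mutant library (right, 43 cells), with Ptn on the horizontal axis and Tcf21 plus Npnt on the vertical axis, both as log2(UMIs + 1). All control cells held Ptn, while 17 mutant cells sit at 0.

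Dpt-led cells, 56 control and 582 mutant, differed from the remaining fibroblasts in few genes. Of 8196 genes measured in both libraries, 1 was 2-fold or more higher in both, 0.0122%, which was Dpt itself, and 5 were lower, 0.061%. In 1 library at a time, 0.86% were higher and 0.795% lower in the control, and 0.0336% and 0.145% in the mutant. Npnt was at 805 CPM in control and 560 CPM in mutant Dpt-led cells, against 404 and 413 CPM in remaining fibroblasts. Limch1, an actin-binding protein of alveolar fibroblasts, was at 1174 and 2243 CPM against 473 and 1682 CPM. Wnt2 was at 281 and 273 CPM against 314 and 315 CPM. Every one of the 56 control cells and 579 of the 582 mutant cells had 3 or more UMIs of Tcf21 and Npnt. Ptn was detected in 11 of the 56 and 35 of the 582, and Pi16 in 1 and 3.

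Cxcl14-led cells, 68 control and 83 mutant, differed from the remaining fibroblasts in fewer genes than the Mfap5-led cells. Of 8426 genes, 42 were 2-fold or more higher in both libraries (0.498%) and 19 lower (0.225%). In 1 library at a time, 2.68% were higher and 1.39% lower in the control, and 0.987% and 0.889% in the mutant. The insulin-like growth factor gene Igf1 was at 356 CPM in control and 231 CPM in mutant cells, against 63.5 and 49.0 CPM in remaining fibroblasts. Its binding proteins Igfbp2, Igfbp3, Igfbp6 and Igfbp7 were also 2-fold or more higher in both, Igfbp2 at 95.1 and 87.6 CPM against 6.91 and 7.66 CPM. Igfbp2 was thus under 10 CPM in the remaining fibroblasts of both libraries, and measured only through the Cxcl14-led cells where it was high. The same held for Igfbp6 in the control library, at 2.60 CPM in remaining fibroblasts. Penk, the precursor of enkephalin peptides, was at 65.1 and 91.6 CPM against 6.42 and 17.1 CPM. Mecom, a zinc finger transcription factor, was at 154 and 238 CPM against 34.4 and 58.9 CPM. Of 19 adventitial genes, 4 were higher in both (Igfbp6, Cd34, Cygb and Abca8a) and 0 lower. Wnt2 was lower in both, at 65.1 and 152 CPM. Pleural markers summed to 588 CPM in control and 148 CPM in mutant Cxcl14-led cells, against 66.4 and 177 CPM in remaining fibroblasts. Of the control cells, 3 of 68 had 3 or more UMIs of Msln, Upk3b, Lrrn4 and Wt1, and of the mutant cells 1 of 83. The part of these markers in the Cxcl14-led profile was not tested.

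Over the chosen cells as a whole, 3 of 8239 genes were 2-fold or more above the remaining fibroblasts in both libraries (0.0364%), and they were Dpt, Mfap5 and Cxcl14, which chose the cells, and 4 were lower (0.0485%). In the control library alone 110 genes were higher (1.19%) and 39 lower (0.421%), and in the mutant library 4 (0.0447%) and 9 (0.101%). Ordered by the smaller of the differences in the 2 libraries, among genes of 50 CPM or more, the first outside the rule were Igfbp7, at 336 CPM in chosen control and 356 CPM in chosen mutant cells against 62.9 and 186 CPM, Fmo1, a flavin monooxygenase, at 60.0 and 81.2 CPM against 17.4 and 39.8 CPM, and Fbln5, an elastic fibre protein, at 158 and 254 CPM against 39.4 and 134 CPM. Abca8a, a lipid transporter (ENSMUSG00000041828, chromosome 11, 110025634 to 110095978), was at 63.7 and 106 CPM against 19.4 and 56.4 CPM. The 17 such genes named, picked for this order, stood 0.46 to 0.90 log2 units above remaining fibroblasts in the mutant library, all under 2-fold.

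The comparison of mutant with control asked how fibroblasts of mouse origin differed between a lung of a wild-type rat host and one of an Nkx2-1-/- host. Of 9676 genes measured in the chosen cells, 883 were 2-fold or more higher in the mutant library (9.13%) and 578 lower (5.97%), with a median of -0.18 log2 units. Scaling by TMM moved that split to 1306 higher and 286 lower and the median to 0.10, and scaling to genes with little intron to 1504 and 592 with a median of -0.02. In the remaining fibroblasts 911 of 9552 genes were higher (9.54%) and 568 lower (5.95%).

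The differences followed intron length. For the 1074 genes whose introns sum to 2 kb or less the median was -0.44 log2 units, and it was 1.21 for 539 genes with more than 200 kb. The same medians in the remaining fibroblasts were -0.42 and 1.23. The 5 genes furthest higher in the mutant library (Hs6st3, Cmss1, Galnt2l, Prkg1 and Sgcd) each had over 300 kb of intron, while 4 of the 5 furthest lower had none. Hs6st3, with 730 kb of intron, was at 12.6 CPM in the control and 1917 CPM in the mutant cells, and Prkg1, with 1190 kb, at 29.6 and 1055 CPM. Galnt2l had 0 control UMIs and 456 CPM in the mutant cells, at least 206-fold higher than the 2.22 CPM that 3 counts would give. Intron counting and host genotype cannot be told apart for such genes. Among 3085 genes with at most 10 kb of intron, 75 were higher (2.43%) and 310 lower (10%), and the highest and lowest differences named below come from these. These genes were not free of the shift, since their median was -0.47 log2 units against -0.18 over all genes. Their CPM below are not adjusted for it. Set against genes with introns of similar length, each of their differences moves up. That of Clec3b went from 1.88 to 2.35 and that of Dlk1 from -2.44 to -1.93.

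Apoe, the lipid-binding apolipoprotein E (ENSMUSG00000002985, chromosome 7, 19696109 to 19699188), was at 630 CPM in the chosen control cells and 2552 CPM in the chosen mutant cells, and at 764 and 2050 CPM in remaining fibroblasts. It was higher in the mutant library whichever marker led: 459 and 1820 CPM in Mfap5-led, 1032 and 2625 CPM in Dpt-led and 277 and 2378 CPM in Cxcl14-led cells. Clec3b, the plasminogen-binding protein tetranectin (ENSMUSG00000025784, chromosome 9, 123150946 to 123157432), was at 82.9 and 333 CPM in chosen and 25.7 and 234 CPM in remaining cells. The interferon-induced membrane proteins Ifitm1 and Ifitm3 stood at 141 and 546 CPM and at 227 and 661 CPM. Nupr1, a stress-response regulator, was at 67.4 and 210 CPM, and Btg2, an antiproliferative immediate early gene, at 654 and 1545 CPM. Gpx3, Sik1 and Tagln, also among the highest differences, were not higher in Mfap5-led cells, at 215 and 111 CPM, 56.2 and 42.2 CPM, and 281 and 276 CPM.

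Heat-shock, histone and cell division genes gave the largest values on the lower side. Hspa1a, an inducible heat-shock chaperone, was at 932 CPM in control and 27.5 CPM in mutant cells, and its near-identical copy Hspa1b at 357 and 9.18 CPM. Reads of the pair may be split uncertainly between them. The histone genes Hist1h2ap (536 and 6.05 CPM) and H2ac8 (213 and 9.38 CPM) belong to a family of near-identical copies as well. In Mfap5-led cells H2ac8 had 0 control and 3 mutant UMIs, too few to give a direction. Pclaf, a replication-associated factor, was at 181 and 15.3 CPM, Ube2c, a mitotic ubiquitin-conjugating enzyme, at 121 and 11.4 CPM, and Stmn1, a microtubule regulator, at 574 and 88.0 CPM. Id1, a target of BMP signalling, was at 238 and 24.0 CPM. Each of these was lower in the remaining fibroblasts of the mutant library too, where Hspa1a was at 942 and 24.7 CPM and Pclaf at 298 and 32.8 CPM.

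**Figure D4:**
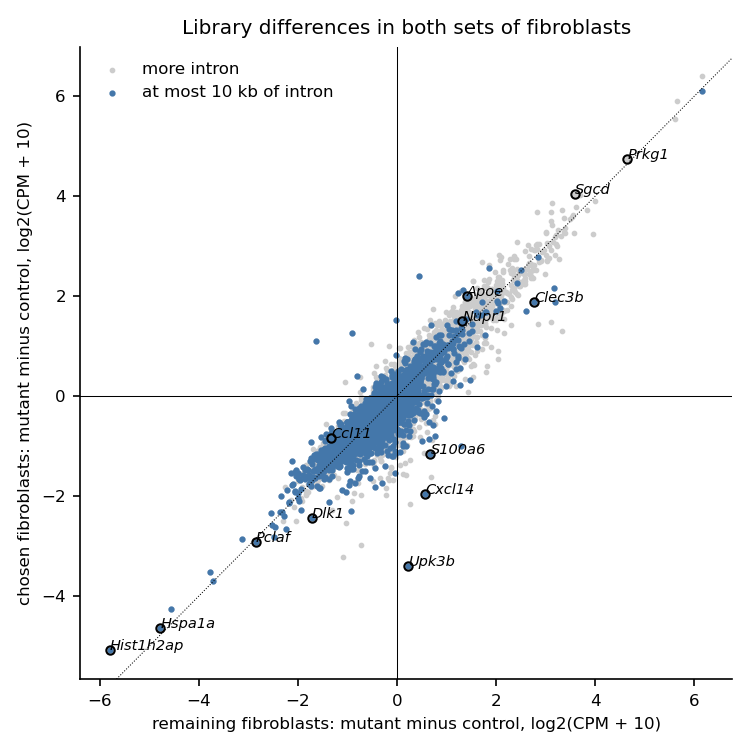
Each point is a gene, with its mutant minus control difference in log2(CPM + 10) in the remaining fibroblasts (horizontal) and in the chosen fibroblasts (vertical); blue marks genes with at most 10 kb of intron and the dotted line marks equal differences. Hspa1a and Hist1h2ap lie low on both axes, while Upk3b, Cxcl14 and S100a6 lie far below the line.

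The genes whose difference departed most from that in the remaining fibroblasts included several whose level differed by leading marker or lay in few cells. Cxcl14, part of the rule, was at 371 CPM in chosen control and 87.4 CPM in chosen mutant cells. Upk3b, a uroplakin of the pleural lining, was at 104 and 0.807 CPM, and 139 of its 140 control UMIs lay in 3 cells with 3 or more UMIs of the pleural genes Msln, Upk3b, Lrrn4 and Wt1. Without the 3 control and 5 mutant cells of that kind its log2 difference went from -3.39 to -0.02, and that of Crip1, with 76 of 160 control UMIs in the 3 cells, from -1.75 to -0.97. S100a6, a calcium-binding protein, was at 287 and 124 CPM in chosen cells, but at 618 and 527 CPM in Mfap5-led, 158 and 90.2 CPM in Dpt-led and 342 and 159 CPM in Cxcl14-led cells. H19, an imprinted noncoding RNA, was at 497 and 92.8 CPM in chosen cells and at 356 and 336 CPM in Mfap5-led cells.

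Dlk1 (ENSMUSG00000040856, chromosome 12, 109452823 to 109463336) was at 1593 CPM in control and 285 CPM in mutant chosen cells, a log2 difference of -2.44 against -1.72 in remaining fibroblasts. By leading marker it was at 3492 and 2409 CPM in Mfap5-led, 674 and 97.5 CPM in Dpt-led, and 2068 and 529 CPM in Cxcl14-led cells. It was lower in the mutant library in each, and least so in Mfap5-led cells. Ptn, at 261 and 71.0 CPM in all chosen cells, was at 207 and 12.9 CPM in Cxcl14-led cells. Igf1, at 179 and 66.9 CPM in all chosen cells, was at 24.7 and 24.5 CPM in Dpt-led cells and 356 and 231 CPM in Cxcl14-led cells.

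Among the gene lists, to be read beside the 9.13% of all genes higher and 5.97% lower, all 25 cell division genes were 2-fold or more lower in the chosen mutant cells, with a median of -1.81, and the median in the remaining fibroblasts was -1.92. Mki67 and Top2a summed to 2 or more UMIs in 25 of 137 chosen control cells and 31 of 731 chosen mutant cells. Of 11 heat-shock genes, 7 were lower and 0 higher (median -1.22, remaining -1.36), and of 17 imprinted genes 7 were lower and 0 higher (median -0.92, remaining -0.50). The imprinted median within leading markers was -0.08 in Mfap5-led, -0.42 in Dpt-led and -0.62 in Cxcl14-led cells. In all chosen cells, the lists were also set against genes with introns of similar length. Then 23 cell division, 4 heat-shock and 7 imprinted genes were 2-fold or more lower, with medians of -1.48, -0.71 and -0.69.

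The adventitial list had 25 members measured in the chosen cells, of which 9 were 2-fold or more lower in the mutant library and 4 higher (all genes: 5.97% and 9.13%), with a median of -0.81, or -0.54 once each gene was set against others with introns of similar length. Those lower were led by Fbln1 (352 and 79.5 CPM), Dcn (202 and 44.2 CPM), Sfrp2 (31.8 and 1.01 CPM) and Ptn. In the remaining fibroblasts the median was 0.27. The chosen-cell median was -0.40 without the pleural-marker cells, which held 37 of the 43 control UMIs of Sfrp2, -0.22 after thinning and -0.31 with a pseudocount of 50. Within leading markers it differed in sign. It was 0.48 in Mfap5-led cells, where 8 of 26 were higher and 1 lower (all genes: 20.3% and 13.5%). In Dpt-led cells it was -0.92, with 3 of 19 higher and 9 lower (all genes: 9.53% and 5.92%), and in Cxcl14-led cells -0.01, with 6 of 26 higher and 7 lower (all genes: 11% and 7.65%).

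On the higher side, 6 of 10 guidance genes were 2-fold or more higher, with a median of 1.64 (all genes: 9.13% higher, 5.97% lower, median -0.18). The smaller counts below lie within a few genes of those shares. Set against genes with introns of similar length, the median was 0.55. Slit2, with 299 kb of intron, was at 178 and 2412 CPM. Of 13 immediate early genes 4 were higher and 1 lower (median 0.57, remaining 1.18), among them Junb, at 532 and 1103 CPM, and Ier2, at 164 and 368 CPM. Of 9 interferon response genes 3 were higher (median 0.43), and of 14 glucocorticoid response genes 3 (median 0.35), led by Zbtb16 at 42.2 and 155 CPM. The fibril collagens had 0 of 16 higher and 2 lower, with a median of -0.12 that turned positive under TMM, under scaling to genes with little intron and after thinning. Elastic fibre genes had 0 of 17 higher and 3 lower, with a median of -0.44 against 0.67 in remaining fibroblasts. Thinned to 3000 UMIs it was 0.03. This median pools cells led by different markers, and Dpt-led cells were 40.9% of chosen control and 79.6% of chosen mutant cells. Eln was lowest in the Dpt-led cells of both libraries, so a change in the mix of cells and a change in level are not told apart here.

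**Figure D5:**
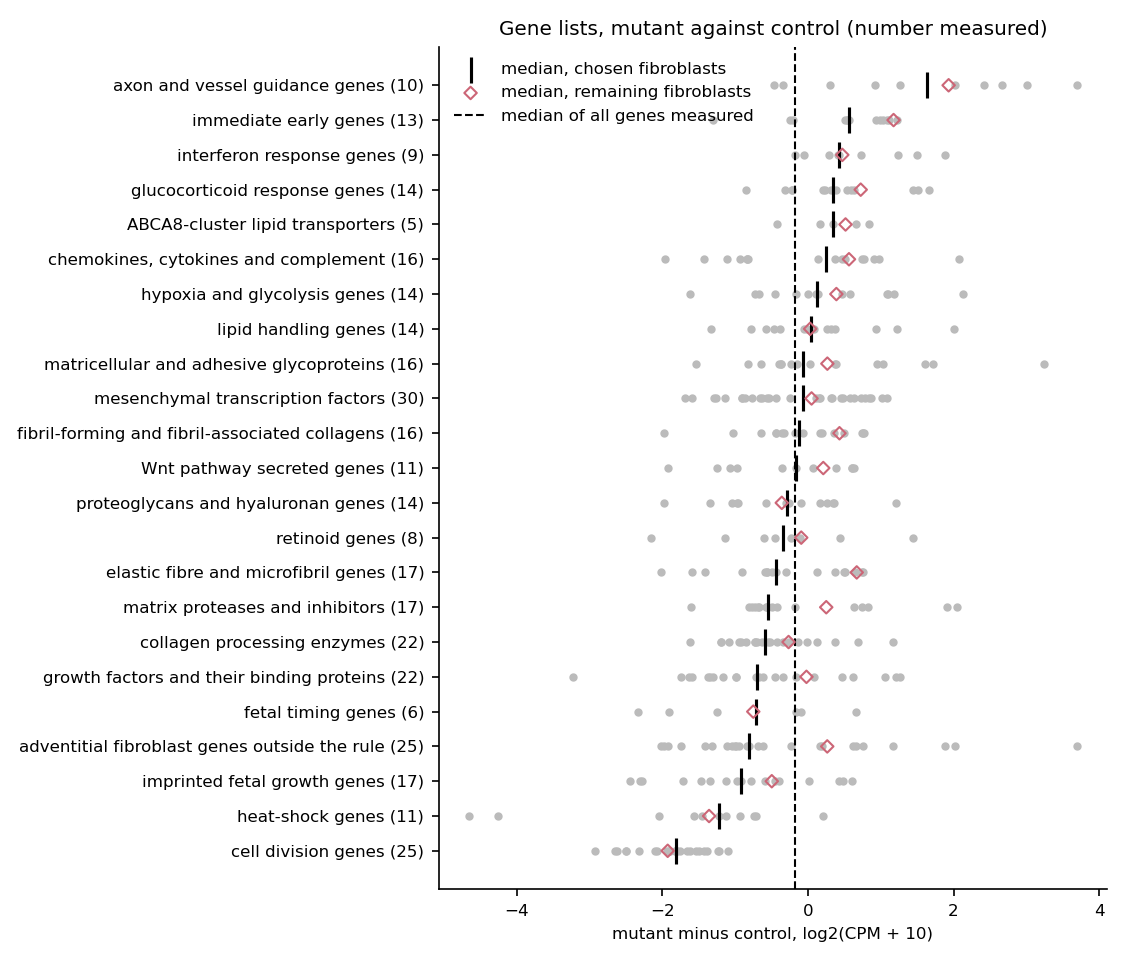
Grey points are the measured members of each fixed list (number in brackets), by mutant minus control difference in log2(CPM + 10) in the chosen fibroblasts; black bars are list medians, red diamonds the medians in the remaining fibroblasts, and the dashed line the median of all genes measured (-0.18). Cell division genes all lie at or below a 2-fold lower value, and the adventitial list has its median below that of the remaining fibroblasts.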

How the data were processed

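The deposited matrices hold the authors' UMI counts per gene and barcode, whole numbers with no scaling, from 10x droplet libraries with 3' v3 reagents, as the labels' protocols state. Per the file headers they came from Cell Ranger 6.0.1 (control) and 7.0.1 (mutant), and builds mm10 and rn6 and Seurat 4.3 are named per the submitters' processing notes. Barcodes with at least 500 genes and at most 20% mitochondrial UMIs were kept, and those with at least 90% mouse UMIs were called mouse. UMIs were summed over the chosen cells of each library and scaled to counts per 1000000 mouse UMIs (CPM), and differences are log2 of CPM + 10. A gene was measured at 10 CPM or more in either group, and called at 2-fold. Intervals are exact Poisson, Clopper-Pearson or conditional binomial, at 95%. They cover counting error only, since cells are not replicates. No test was run because each group is 1 library. Gene positions and intron lengths come from GENCODE vM21 on mm10, matched by gene identifier for 99.5% of 55293 symbols.

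Cells were picked by the limits alone, without clustering, and none was removed as a doublet. Scrublet in Scanpy 1.11.5 gave scores of 0.2 or more to 1 chosen control and 12 chosen mutant cells, and leaving such cells out is an alternative. For shares of cells with a UMI, cells were thinned to 3000 mouse UMIs. Background shares are from endothelial cells (Cdh5 and Pecam1 of 5 or more, collagen sum under 30). TMM factors are from edgeR 4.0.16. Other tools were Python 3.11.15, NumPy 2.4.6, SciPy 1.17.1 and pandas 2.3.3.

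Named genes are the 15 with the highest level, the 20 furthest above the remaining fibroblasts (50 CPM or more in both libraries), the 12 highest and 12 lowest differences between libraries among genes with at most 10 kb of intron and the 5 on each side among all, the 8 on each side that depart most from the remaining fibroblasts (100 CPM and 20 UMIs or more for both rules), and members of 23 gene lists. The cells, lists and rules were chosen with earlier results of these data known. Each difference was also set against the median of genes with introns of similar length, and the sums were tested on simulated data with known folds.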

Additional observations from a re-analysis of the deposited data

How the results depend on the processing

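No paired analysis was possible because each group is 1 library, and no library could be left out in turn. Requiring 95% mouse UMIs, leaving out scored doublets or pleural-marker cells, or dropping the filter on low genes moved no count by over 1.5 times and no share beyond its interval. The shares of mouse cells were 2.22% (control) and 9.58% (mutant) with at least 1000 genes and at most 10% mitochondrial UMIs, 1.01% and 6.03% with a marker sum of 6 or more, and 6.09% in the mutant library after thinning. The genes 2-fold higher and lower in the mutant library, 883 and 578, were 1339 and 1337 with a pseudocount of 1 and 311 and 120 with 50. TMM gave 286 lower and scaling to genes with little intron 1504 higher. Lists with a median above 0 went from 8 to 13 of 23 under TMM, and 8 of the 23 medians changed sign under at least 1 of these settings.

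Against the remaining fibroblasts the control counts, 110 higher and 39 lower, were 170 and 79 with a marker sum of 6, 67 and 90 under TMM, 196 and 60 scaled to genes with little intron, 296 and 122 with a pseudocount of 1, and 29 and 4 with 50. Thinning gave 144 lower. The mutant counts, 4 higher and 9 lower, were 13 and 29 scaled to genes with little intron, 29 and 64 with a pseudocount of 1, 1 and 0 with 50, and 25 and 42 against fibroblasts with a marker sum of 0. They were 4 lower with a marker sum of 6 and 5 lower by the mean of single cells.

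Splitting by leading marker, chosen after seeing the data, gave 1920 higher and 1279 lower between libraries in Mfap5-led cells, with 17 lists above 0. Against remaining fibroblasts the Mfap5-led cells had 773 and 1392 (control) and 451 and 406 (mutant), the Cxcl14-led cells 256 and 133, and 91 and 82, and the Dpt-led cells 73 lower in the control. In Mfap5-led cells the sign of the difference between libraries turned for Cxcl14 (1.45), Gpx3 (-0.89), H2ac8 (0.66), Sik1 (-0.34) and Tagln (-0.024). The value of H2ac8 rested on 0 CPM in control and 5.75 CPM in mutant cells, too few UMIs to give a direction. Against remaining fibroblasts the sign turned for Slc36a2 in Mfap5-led control cells (-1.78), Ptn in Dpt-led control cells (-0.13) and Dpt in Cxcl14-led mutant cells (-0.16). The cause was not tested; the Mfap5-led control cells number 10.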

Other observations

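The highest levels in the chosen fibroblasts, by the mean of both libraries, were those of Malat1, a nuclear noncoding RNA, at 25770 CPM in the control and 27780 CPM in the mutant cells, and Mfap4, a microfibril glycoprotein, at 7027 and 9971 CPM. Mgp, the matrix inhibitor of calcification, was at 4396 and 3553 CPM in chosen cells. By leading marker it was at 6320 and 7142 CPM in Mfap5-led, 2254 and 2984 CPM in Dpt-led and 6187 and 5885 CPM in Cxcl14-led cells, so the Dpt-led cells had the lowest level in both libraries. Eln showed the same order, with 1568 and 4335 CPM in Dpt-led against 3742 and 7710 CPM in Cxcl14-led cells. Cells are not replicates, and none of these differences was tested.

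EGFP, the reporter sequence added to the gene set, was at 6215 CPM in chosen control and 4186 CPM in chosen mutant cells, close to the 5960 and 3966 CPM of the remaining fibroblasts. The Tomato sequence had 0 UMIs in both libraries. The median share of rat UMIs in the chosen cells was 0.758% and 0.572%. Globin and other red cell markers summed to 583 and 1744 CPM in chosen cells and to 1363 and 1638 CPM in remaining fibroblasts. In the chosen cells 1 control cell held 454 of the 788 such UMIs and 1 mutant cell 12432 of 17286, and the medians per cell were 2 and 1.

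The chosen cells left out many others with the same marker sum. Of 253 control and 1599 mutant mouse cells with a sum of 4 or more, 66 and 616 failed the limit on Aspn, Hhip and Fgf18 alone. Ccl11, a chemokine that attracts eosinophils, was at 178 and 301 CPM in Mfap5-led cells but at 196 and 47.5 CPM in Dpt-led cells, and so differed in sign between them. That difference in sign was not tested.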
